A study of Mus musculus musculus x M. m. domesticus and Mus musculus musculus x Mus musculus castaneus and Mus musculus domesticus with 42 samples.

Results

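Protamines and transition proteins are the small nuclear proteins that pack the sperm genome. The genes Prm1, Prm2, Prm3, Tnp1 and Tnp2 were chosen by name, and every probe set whose gene symbol in the platform annotation is 1 of these 5 was used. This gave 8 probe sets, each with exactly 1 symbol: 3 for Prm1, 2 for Tnp1 and 1 each for Prm2, Prm3 and Tnp2, among 18193 genes named on the array. Transcript levels had been measured on 42 Affymetrix 430 2.0 arrays, with 1 array for testis, liver and brain of each of 14 male mice. The mice came from wild-derived inbred lines of 3 house mouse subspecies and from their F1 hybrids, with 2 males per genotype. The parental groups were domesticus aged 45 days, musculus aged 47 days and castaneus aged 47 days. The F1 groups, written with the mother first, were musculus x domesticus at 53 days, domesticus x musculus at 50 days, musculus x castaneus at 53 days and castaneus x musculus at 54 days. Age cannot be told apart from genotype in most of these comparisons, and 1 inbred line stands for each subspecies as far as the labels say. The study asked whether the F1 lie between their parents or outside both.

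As spermatids elongate, the histones leave the chromatin. Transition proteins, the products of Tnp1 and Tnp2, take their place, and the arginine-rich protamines of Prm1 and Prm2 follow and condense the sperm nucleus. The transcripts are made in round spermatids, stored with their translation repressed and translated in elongating spermatids. Prm3 lies in the same gene cluster as Prm1, Prm2 and Tnp2, but its product is an acidic protein of the cytoplasm and is not known to pack DNA.

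All values are MAS5 signals, a linear intensity per probe set. Log2 differences are differences of log2(signal + 31), fitted with limma over all 14 testis arrays and 27022 probe sets. A change is called at a Benjamini-Hochberg adjusted p under 0.05 over all of these probe sets, and all 8 probe sets passed the filter on low signals. The labels describe the replicates as biological, and replicate testis arrays correlated with Pearson's r of 0.974 to 0.978 over all tested probe sets. The testis arrays carried the markers of their label: 10 round spermatid genes summed to 35612 to 71677 signal units there, against 315 to 761 in liver and 349 to 696 in brain. Brain markers summed to 449 to 898 units in testis, against 30484 to 42795 in brain. Liver markers summed to 281 to 3438 in testis, against 104756 to 165978 in liver. With 14 arrays per tissue, the precision of each value is limited by their number.

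The signals of all 8 probe sets were high in testis. In liver and brain, 6 of the 8 lay below the filter on low signals in both tissues. Prm1 1415955_x_at passed it in both, and Prm2 passed it in liver. The brightest Prm1 probe set, 1437054_x_at, ranged from 16154 to 28915 over the testis arrays, with a median of 19955, against 1 to 47 in liver and 0 to 53 in brain. Tnp2 ranged from 11680 to 22362 in testis, against 4 to 81 in liver and 3 to 19 in brain. The brighter Tnp1 probe set, 1415924_at, ranged from 14252 to 28261, against 4 to 62 in liver and 3 to 46 in brain. No testis array overlapped any array of another tissue for any of the 8 probe sets. The share of all probe sets that separate the tissues in this way was not determined. Prm2 gave 14129 to 24856 in testis, 50 to 202 in liver and 28 to 121 in brain. Prm3 gave 4233 to 12746, 11 to 182 and 48 to 133 in the same order. In a fit of all 42 arrays with the male as a random block, the testis minus brain difference ran from 5.55 for Prm1 probe set 1415955_x_at to 9.13 for 1437054_x_at. The testis minus liver difference ran from 3.50 to 9.12 for the same pair of probe sets. All 8 were called in both contrasts, as were 84.5% of the 34583 probe sets against brain and 84.9% against liver. Only 1 probe set had a larger testis minus brain difference than 1437054_x_at, and none had a larger testis minus liver difference.

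**Figure D1:**
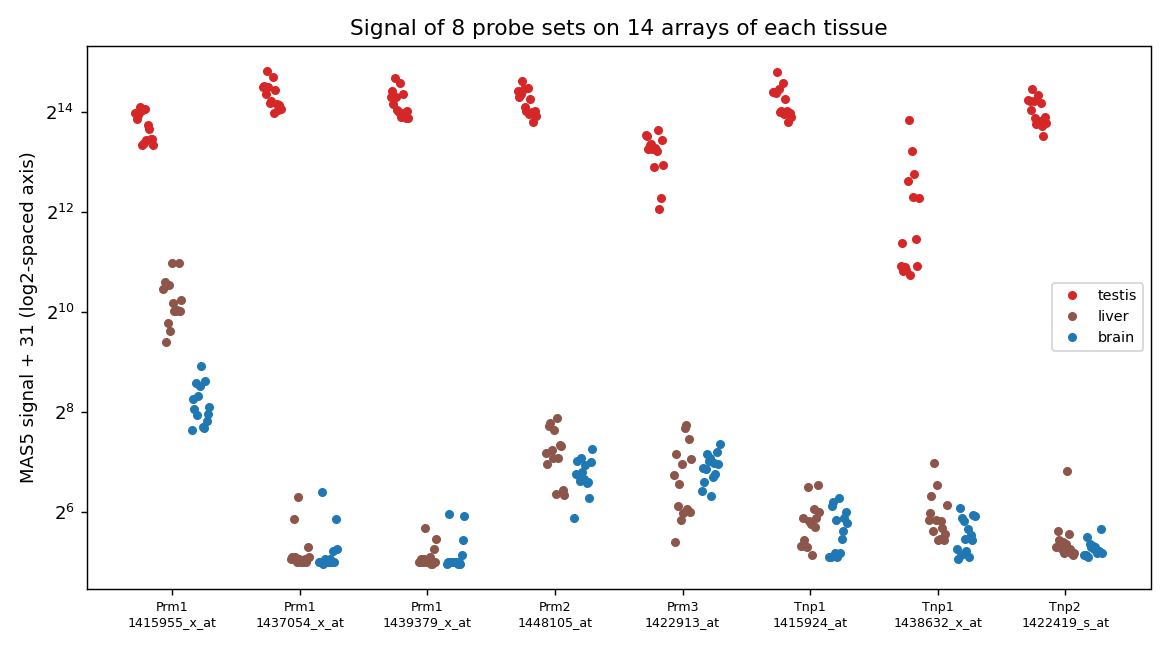
MAS5 signal plus the offset of 31, on a log2-spaced axis, for 8 probe sets of the protamine and transition protein genes. Each point is 1 of 14 arrays of testis, liver or brain, and the sideways position of points carries no meaning. Testis lies above both other tissues throughout, and Prm1 probe set 1415955_x_at has signals of 641 to 1975 in liver where the other Prm1 probe sets have at most 47.

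The highest signals outside testis were those of Prm1 probe set 1415955_x_at. It read 641 to 1975 on the liver arrays, with a median of 1073.5, and 168 to 448 on the brain arrays, with a median of 237.5. Liver lay above brain without overlap, whereas the other pair of Prm1 probe sets reached at most 47 in liver and 53 in brain. In the array's naming, the suffix _x_at marks probe sets with probes that may also bind other transcripts. All 3 Prm1 probe sets carry it, so the suffix does not set this one apart. What the liver and brain signal is was not tested.

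In testis, the 4 genes Prm1, Prm2, Tnp1 and Tnp2 stood at the upper end of the signal range. Of 45037 probe sets, Prm1 1437054_x_at ranked between 1 and 11 on each testis array and read 86.4% to 100% of the highest signal of its array. Prm2 ranked 3 to 29, Tnp1 1415924_at 2 to 39 and Tnp2 22 to 123. Prm3 ranked 227 to 1426 and read 21.7% to 54% of the array's highest signal. These ranks describe where each probe set sits on the scale of the array and do not compare transcript amounts between genes.

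Prm1 encodes the protamine found in the sperm of all mammals. Its brightest probe set read 21014 and 28915 in musculus, 23127 and 23191 in domesticus, 16154 and 22042 in castaneus, 23037 and 18342 in musculus x domesticus, 18896 and 26607 in domesticus x musculus, 18117 and 16719 in musculus x castaneus, and 17822 and 16931 in castaneus x musculus. The genotype means fell in the order musculus, domesticus, domesticus x musculus, musculus x domesticus, castaneus, musculus x castaneus and castaneus x musculus. Every neighbouring pair in that order overlapped, and the test over all 7 genotypes gave an adjusted p of 0.209 (limma F test). The other Prm1 probe sets spanned 14963 to 26242 (1439379_x_at, adjusted p = 0.323) and 10258 to 17414 (1415955_x_at, adjusted p = 0.283).

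Prm2 encodes the second protamine, made as a precursor that is trimmed in the spermatid. It read 20979 and 24856 in musculus, 21805 and 20127 in domesticus, 15784 and 19561 in castaneus, 22492 and 17402 in musculus x domesticus, 16579 and 22739 in domesticus x musculus, 16201 and 14129 in musculus x castaneus, and 16445 and 15493 in castaneus x musculus. Musculus had the highest mean and the musculus x castaneus F1 the lowest, with domesticus, musculus x domesticus, domesticus x musculus, castaneus and castaneus x musculus between them in that order. Neighbours in the order overlapped, and the F test gave an adjusted p of 0.1.

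Because sperm need both protamines in balance, the within-array log2 difference of the brightest Prm1 probe set and Prm2 was compared over the genotypes. The difference lay between 0.00 and 0.24 on the 14 arrays. Its genotype mean was lowest in the musculus x domesticus F1, at 0.06 ± 0.029 (SD, n = 2), and highest in the domesticus x musculus F1, at 0.21 ± 0.027. The musculus x castaneus F1 had 0.20 ± 0.058 and musculus 0.11 ± 0.152. No difference among the 7 genotypes was detected (exact permutation test of F over all 135135 ways to form 7 pairs, p = 0.529, smallest p possible 7.4e-06). The quantity compares the change of 2 probe sets and is not a ratio of transcript numbers. Both probe sets read at 80.7% to 100% of the highest signal of their array. Whether signals there still follow the amount of transcript was not tested, so a change of balance could go unseen.

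Prm3 had its lowest signals in a single genotype. It read 9681 and 10335 in musculus, 11767 and 11592 in domesticus, 9503 and 12746 in castaneus, 10501 and 9725 in musculus x domesticus, 7533 and 9927 in domesticus x musculus, 4233 and 4917 in musculus x castaneus, and 10975 and 7782 in castaneus x musculus. Both musculus x castaneus males lay below all 12 other arrays, whose lowest value was 7533. The share of all probe sets with such a separation was not determined. In this F1, limma called 7% of all probe sets lower than both parents. The means ran from 11679.5 ± 124 (SD, n = 2) in domesticus through castaneus, musculus x domesticus, musculus, castaneus x musculus and domesticus x musculus to 4575 ± 484 in the musculus x castaneus F1. Only the last neighbours in this order did not overlap. Prm3 was the only member called in the F test over the 7 genotypes (F = 11.8, adjusted p = 0.00101), a test that called 40.2% of all probe sets.

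Tnp1 encodes a small, highly basic transition protein. Probe set 1415924_at read 21307 and 28261 in musculus, 21570 and 21605 in domesticus, 15873 and 19602 in castaneus, 22401 and 16237 in musculus x domesticus, 16454 and 24258 in domesticus x musculus, 16494 and 14252 in musculus x castaneus, and 16088 and 15094 in castaneus x musculus. The means fell from musculus through domesticus, domesticus x musculus, musculus x domesticus, castaneus and castaneus x musculus to musculus x castaneus, with overlap between all neighbours (F test, adjusted p = 0.101).

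Tnp2 encodes the zinc-binding transition protein. It read 16750 and 22362 in musculus, 19106 and 18986 in domesticus, 14409 and 18537 in castaneus, 18882 and 14870 in musculus x domesticus, 13839 and 20569 in domesticus x musculus, 13326 and 11680 in musculus x castaneus, and 15184 and 14016 in castaneus x musculus. The order of the means was the same as for Tnp1. Its lowest neighbours, the reciprocal F1 of castaneus, were the only ones without overlap, and the F test gave an adjusted p of 0.156.

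**Figure D2:**
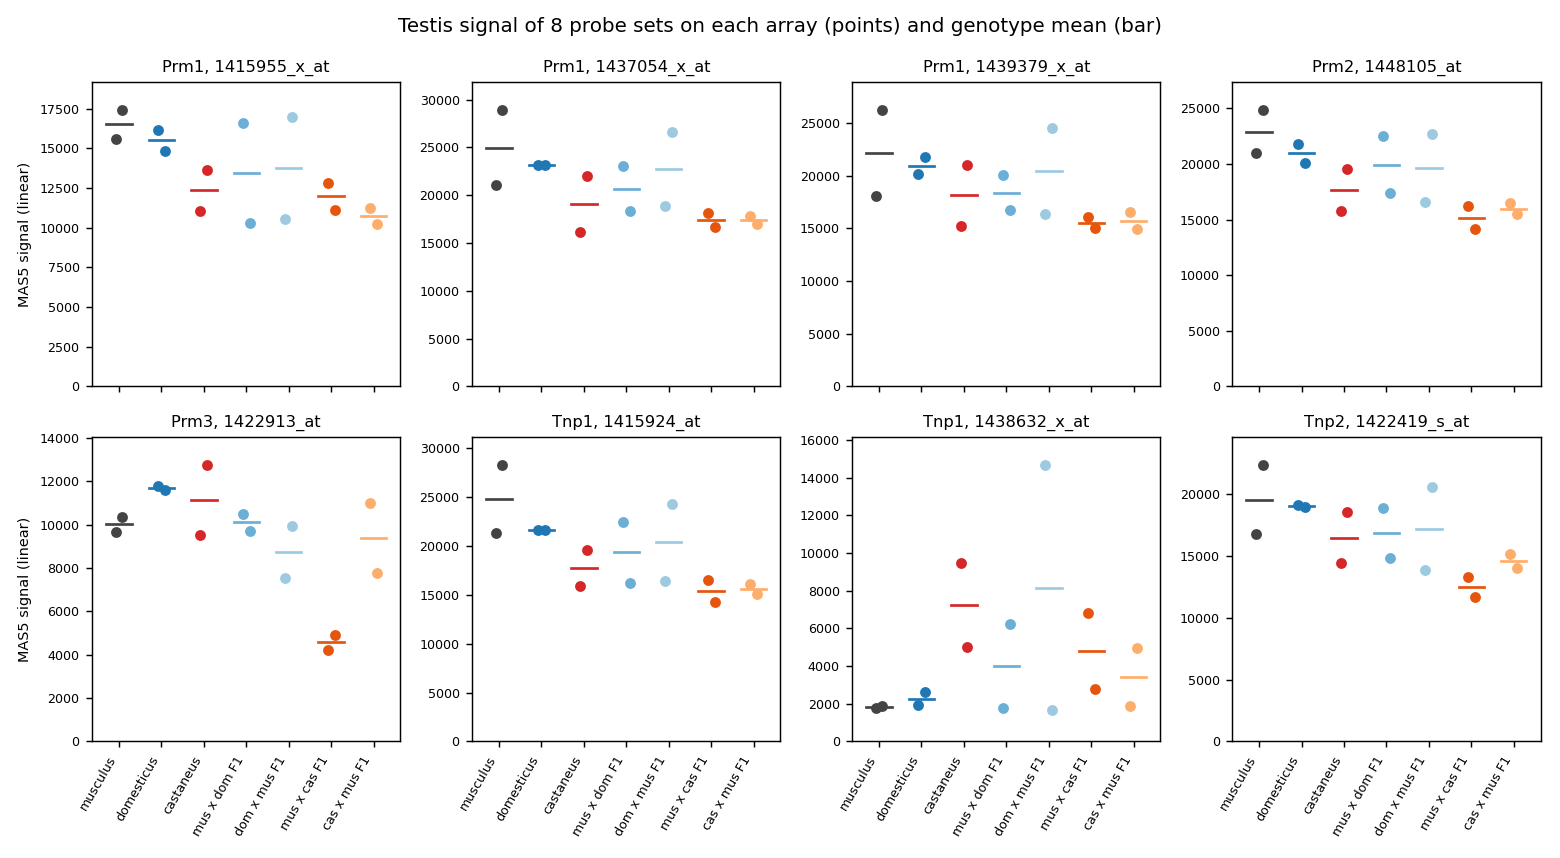
Linear MAS5 signal in testis of 8 probe sets, with 1 point per array (2 males per genotype) and a bar at the genotype mean; each panel has its own axis from 0. Prm3 is lowest in the musculus x castaneus F1 at 4233 and 4917, while the other genes overlap between most genotypes and the second Tnp1 probe set, 1438632_x_at, varies from 1666 to 14664.

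The Tnp1 probe sets did not agree. Probe set 1438632_x_at read 1756 and 1862 in musculus, 1908 and 2617 in domesticus, 9464 and 5019 in castaneus, 1796 and 6241 in musculus x domesticus, 14664 and 1666 in domesticus x musculus, 6834 and 2779 in musculus x castaneus, and 1895 and 4944 in castaneus x musculus. The males of the domesticus x musculus F1 were the highest and the lowest of all arrays, an 8.8-fold range, and the F test gave an adjusted p of 0.422. Over the 14 arrays the Tnp1 probe sets were inversely related (Pearson's r = -0.62, permutation p = 0.018, adjusted over 9 relations 0.02; Spearman's rho = -0.61, permutation p = 0.022, adjusted 0.022). Without the 2 arrays farthest from the median of 1415924_at, r was -0.54. Tnp1 is described from the brighter probe set here.

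The bright members followed the level of the other bright probe sets on each array. The mean log2 signal of the 100 brightest probe sets other than the members, called the bright level here, had a range of 0.68 over the testis arrays. It was 13.69 and 13.60 in the musculus x castaneus males and 13.77 to 14.29 on the other arrays. Tnp2 rose with it (r = 0.99, rho = 0.96), as did Prm2 (r = 0.96, rho = 0.95), Prm1 1437054_x_at (r = 0.94, rho = 0.91) and Tnp1 1415924_at (r = 0.94, rho = 0.89). For these 4, the permutation p of r was 1e-05, the smallest the permutations could give, and 1.8e-05 after adjustment over 9 relations. The permutations moved the 14 arrays freely and did not keep the males of a genotype together. Ranks of 1 to 123 place the 4 close to the probe sets that define the level. No r of other bright probe sets with the level was taken as a benchmark. The adjusted permutation p of rho was at most 0.00016. With the 2 arrays farthest from the median left out, r was 0.92 to 0.98.

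The same held within genotypes. Of the 7 pairs of males, the array with the higher bright level also had the higher signal in 7 pairs for Prm2 and Tnp2 and in 6 for Prm1, Prm3 and Tnp1. After each array was shifted to an equal bright level, the SD of Tnp2 over the 14 arrays fell from 0.274 to 0.080 on the log2 scale and that of Prm2 from 0.252 to 0.083. The SD of Prm1 fell from 0.260 to 0.097 and that of Tnp1 from 0.297 to 0.125. Prm3 was less tied to the bright level (r = 0.76, adjusted permutation p = 0.00094; rho = 0.75, adjusted 0.0038; r = 0.72 without the 2 farthest arrays), and its SD fell from 0.463 to 0.336. Tnp1 probe set 1438632_x_at went the other way (r = -0.60, adjusted permutation p = 0.024; rho = -0.70, adjusted 0.0076; r = -0.74 without the 2 farthest arrays), with an SD of 1.037 before and 1.171 after the shift. Between 46 and 107 probe sets per array read at least 70% of the array's highest signal. Whether the bright level reflects the arrays, the scaling or the tissue was not tested.

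**Figure D3:**
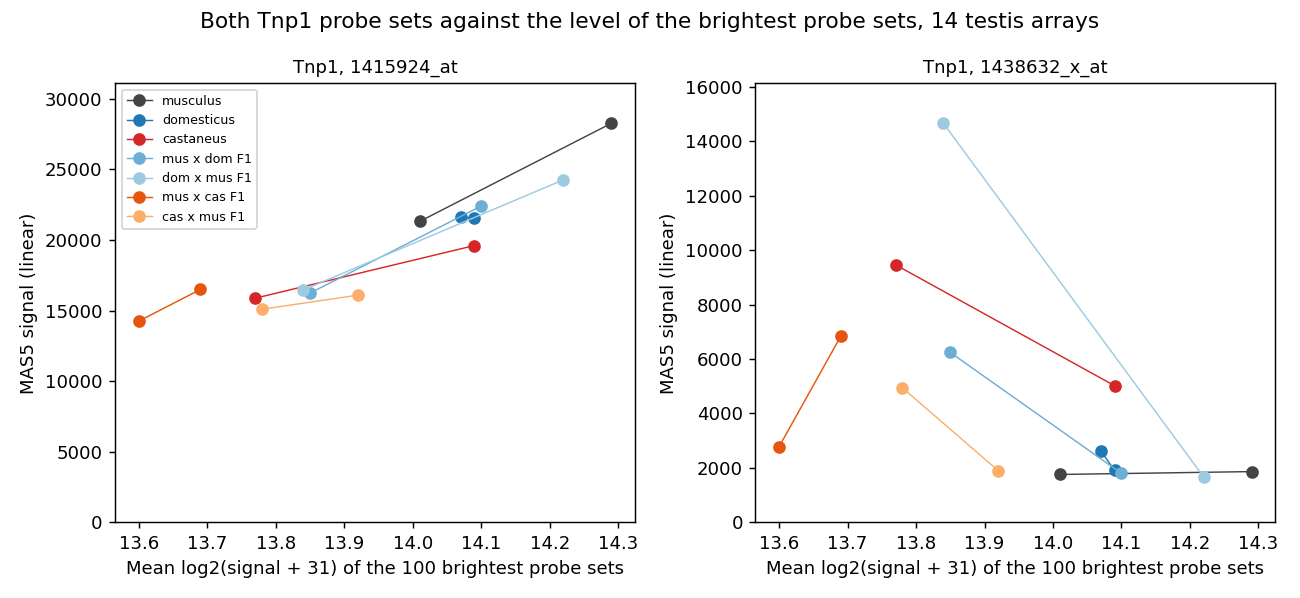
Linear MAS5 signal of the Tnp1 probe sets in testis against the mean log2(signal + 31) of the 100 brightest other probe sets, with 1 point per array and a line joining the 2 males of a genotype. Probe set 1415924_at rises with the bright level (r = 0.94), and 1438632_x_at falls (r = -0.60).

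No member was called different between the parental subspecies in testis. Of the 8 probe sets, 0 were called in domesticus minus musculus, castaneus minus musculus or castaneus minus domesticus, where limma called 12.8%, 13.5% and 12.4% of all probe sets. At an unadjusted p under 0.05 the counts were 0, 2 and 0, where 24.6%, 25.8% and 25% of all probe sets passed. The 2 were both of Tnp1 and pointed in opposite directions: 1415924_at had -0.48 ± 0.204 (SE, adjusted p = 0.158) and 1438632_x_at had 1.91 ± 0.817 (adjusted p = 0.156, limma) in castaneus minus musculus. For Prm3 the same contrast was 0.14, with a 95% interval of -0.26 to 0.54, and domesticus minus musculus was 0.22 (-0.18 to 0.62). For Prm1 1437054_x_at the values were -0.38 (-0.81 to 0.04) and -0.09 (-0.52 to 0.34). With 2 males per group these intervals still allow changes of about that width.

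In the domesticus cross, no member was called different from the midparent, the mean of both parents. The musculus x domesticus F1 had 0 members called against the midparent (0.292% of all probe sets) and the domesticus x musculus F1 also 0 (0.27%). Prm3 lay at -0.10 (-0.44 to 0.25) and -0.32 (-0.67 to 0.03), Prm2 at -0.14 and -0.17, and Tnp2 at -0.20 and -0.19. For the mean of both F1 the count was 0 (0.414%). For their reciprocal difference, taken as musculus mother minus musculus father, it was also 0 (0.204%). In each of these 4 contrasts, 0 members had an unadjusted p under 0.05. Over all probe sets the shares were 5.99%, 5.21%, 5.48% and 4.88% in the same order. Neither F1 had a member called outside both parents, again with 0 at an unadjusted p under 0.05. There limma called 0% of all probe sets in either F1, with 177 and 183 probe sets at an unadjusted p under 0.05.

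In the castaneus cross, the musculus x castaneus F1 stood apart. Prm3 was lower there than the midparent by 2.29-fold (log2 difference -1.20 ± 0.161, SE, adjusted p = 0.000111, limma) and lower in both males. Against musculus the difference was -1.13 ± 0.186 (adjusted p = 0.000463) and against castaneus -1.26 ± 0.186 (adjusted p = 0.000329), so that Prm3 lay below both parents (adjusted p = 0.00134 for the larger of both p-values). Prm3 was the 1 member called outside both parents, a call made for 15.4% of all probe sets.

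Among the other members, only Tnp2 was called against the midparent in this F1. It had -0.51 ± 0.174 (adjusted p = 0.035, limma), so that 2 of 8 probe sets passed where 35.3% of all did. Prm2 had -0.40 (adjusted p = 0.055), Tnp1 1415924_at -0.44 (adjusted p = 0.0695) and Prm1 1437054_x_at -0.31 (adjusted p = 0.187), and none of these passed. Tnp1 1438632_x_at had 0.30 (-1.23 to 1.82). Against musculus alone, 4 of 8 were called, with 36.2% of all probe sets: Prm3, Prm2 (-0.59, adjusted p = 0.018), Tnp1 1415924_at (-0.68, adjusted p = 0.0191) and Tnp2 (-0.63, adjusted p = 0.0247). Against castaneus alone, Prm3 was the only 1 of 8 called (27.4% of all probe sets).

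The calls of Prm2, Tnp1 and Tnp2 depended on how the signals were rescaled, and that of Prm3 did not. With quantile normalization, Tnp2 minus midparent was -0.20 (adjusted p = 0.0566, limma), and with the bright level equalised it was -0.12 (adjusted p = 0.284). The call was also lost without the second musculus male, the second castaneus male or either musculus x castaneus male. It was no longer called with no filter on low signals (adjusted p = 0.0746) or no intensity trend (adjusted p = 0.0672) either. Prm2 minus midparent passed with the filter at the 60th percentile (adjusted p = 0.0445), with the midparent of linear signals (adjusted p = 0.0461), with the compared genotypes alone (adjusted p = 0.0491) and without the first castaneus male (adjusted p = 0.034). Tnp1 1415924_at minus midparent passed without the first musculus male (adjusted p = 0.0422). The calls of Prm2, Tnp1 1415924_at and Tnp2 against musculus were lost under both scalings, and without the second musculus or the second musculus x castaneus male. Prm3 minus midparent was -0.98 (adjusted p = 2.19e-05) after quantile normalization and -0.80 (adjusted p = 2.46e-05) with the bright level equalised.

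**Figure D4:**
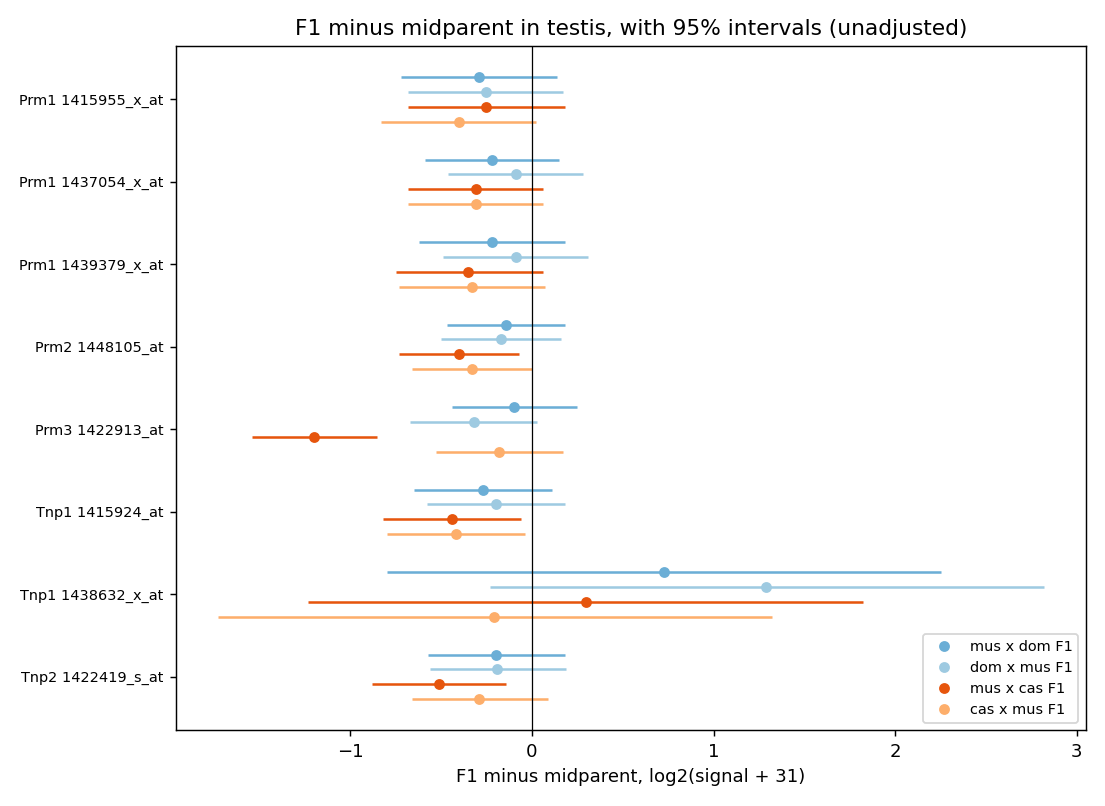
Log2 difference of each F1 from the mean of its parents in testis for 8 probe sets, with unadjusted 95% intervals from limma (2 males per genotype). Prm3 in the musculus x castaneus F1 lies at -1.20 (-1.54 to -0.85), apart from its values in the other F1, while the intervals of the second Tnp1 probe set are the widest.

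The reciprocal castaneus x musculus F1 did not show the low Prm3 signal. Prm3 minus midparent was -0.18 (-0.53 to 0.17) there, and 0 members were called (0.3% of all probe sets). At an unadjusted p under 0.05 there was 1, Tnp1 1415924_at (-0.42, adjusted p = 0.545, limma), where 8.49% of all probe sets passed. No member was called outside both parents, with 0 at an unadjusted p under 0.05, where 0.0037% of all probe sets were called. Over all probe sets 1.38% had an unadjusted p under 0.05 there. The reciprocal difference of Prm3, musculus mother minus musculus father, was -1.01 ± 0.186 (adjusted p = 0.00181, limma), a 2.02-fold lower signal, and Prm3 was the 1 member called among 28.4% of all probe sets. The brightest Prm1 probe set, Prm2 and Tnp1 1415924_at had reciprocal differences of 0.00 (-0.43 to 0.43), -0.08 (-0.46 to 0.30) and -0.02 (-0.46 to 0.42). Tnp2 had -0.23 (-0.66 to 0.21), in the direction of Prm3 but not called. Prm1 1415955_x_at had 0.15 (-0.34 to 0.65) and Prm1 1439379_x_at had -0.02 (-0.48 to 0.45). Tnp1 1438632_x_at had 0.50 (-1.26 to 2.27). For the mean of both castaneus F1, Prm3 was again the 1 member called (-0.69, adjusted p = 0.00366, with 17.4% of all probe sets called). That mean joins a low and a near-parental F1.

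The reciprocal difference of Prm3 also differed between the crosses. It was 0.22 (-0.18 to 0.63) in the domesticus cross, and the castaneus minus domesticus difference was -1.24 ± 0.264 (adjusted p = 0.0148, limma interaction contrast), with 1 of 8 members and 6.58% of all probe sets called. This call was lost without the first musculus x domesticus male (adjusted p = 0.0605), the first domesticus x musculus male (adjusted p = 0.0632) or the first castaneus x musculus male (adjusted p = 0.0738).

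Many other transcripts moved in the musculus x castaneus testis, and the direction depended on the signal. Against the midparent, 5923 probe sets were higher and 3629 lower. That split was 4648 to 4450 after quantile normalization and 10572 to 1296 with the bright level equalised. The median over all tested probe sets was 0.14, 0.02 and 0.53 in these settings. Among the 76 probe sets with a mean testis signal of 15000 or more, which include 5 of the 8 member probe sets, the median was -0.38, with quartiles of -0.47 and -0.31, and 0 were called higher and 26 lower. The values of Prm1, Prm2, Tnp1 and Tnp2, from -0.51 to -0.31, lie in or beside that interval. Among the 1042 probe sets of 5000 to 10000, where Prm3 belongs, the median was -0.32, 47.5% were called lower, and 81 were at or below Prm3's -1.20. Over all tested probe sets 660 were at or below it, which is 2.44%.

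Genes whose signals ran most like a member were found by Pearson's r over the 14 arrays, as a description. For Prm1 they were Slc2a3 (0.983), Ldhc (0.976), Ppp1cc (0.968), Pabpc1 (0.960) and Gstm5 (0.958). For Prm2 they were Pabpc1 (0.992), Ldhc (0.988), Tcp1, Gstm5 and Tmsb10, and for Tnp1 the same 5 names with Ldhc first (0.985). For Tnp2 they were Gstm5 (0.986), Gpx4, Asrgl1, Phf7 and Ppp1cc. All of these have bright probe sets, with a median rank on the arrays of 1 to 93. The nearest to Prm3 were Actrt2 (0.966), Tmem53, Fam71e1, Nudt18 and Rbm4b (0.962 each), with median ranks of 236.5 to 1194.5. Among the members, Prm1 1437054_x_at, Prm2, Tnp1 1415924_at and Tnp2 correlated with each other at 0.94 to 0.98, and Prm3 correlated with them at 0.52 to 0.74. The arrays share their scaling, which enters all of these values.

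Transcripts of later germ cells were lower in the musculus x castaneus F1. Of 30 genes for structures of the elongating spermatid, 27 were called lower than the midparent and 0 higher (median -0.86, against 0.14 over all probe sets, of which 21.9% were called higher and 13.4% lower). The largest differences were those of Fscn3, an actin-bundling protein gene (-1.52), Spem1, a spermatid maturation gene (-1.45), and the testis-specific kinase genes Tssk3 (-1.32) and Tssk6 (-1.30). Fscn3 read 2348 and 1653 in this F1, against means of 5300 in musculus and 6153.5 in castaneus. Of 10 round spermatid genes, 10 were called lower (median -1.02), led by Izumo1, a sperm surface protein gene needed for fusion with the egg (-1.43), Hspa1l, a spermatid heat shock protein gene (-1.27), and Spaca3, an acrosomal lysozyme-like protein gene (-1.15). Without any 1 of the 14 arrays these counts were 21 to 27 and 9 to 10. They were 25 and 10 after quantile normalization and 23 and 6 with the bright level equalised. In the main fit, 34.2% to 47.5% of probe sets in the signal ranges from 2500 upward were called lower, with medians of -0.38 to -0.20.

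In the castaneus x musculus F1, limma called 0 genes of either list against the midparent and 0 had an unadjusted p under 0.05, with medians of -0.18 and -0.08. Over all probe sets, 0.3% were called and 8.49% had an unadjusted p under 0.05. In the reciprocal comparison of the castaneus F1, 20 of 30 and 10 of 10 were lower in the musculus x castaneus F1, where 10.6% of all probe sets were lower and 17.9% higher. The first count was 12 without the second musculus x castaneus male and 12 without the first castaneus x musculus male. In bulk tissue, fewer cells of a type and less RNA per cell cannot be told apart.

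The genes that act on protamine and transition protein transcripts were mixed. Of 25 tested regulators of their transcription and translation, 13 were lower and 3 higher in the musculus x castaneus F1 than the midparent (median -0.36), against 13.4% lower and 21.9% higher and a median of 0.14 over all probe sets. The median was -0.10 after quantile normalization (11 lower, 4 higher) and turned to 0.04 with the bright level equalised (5 lower, 7 higher). In the main fit, 34.2% to 47.5% of probe sets in the signal ranges from 2500 upward were called lower. The medians of those ranges were -0.38 to -0.20. The regulators were not compared with probe sets of equal signal. The largest differences among the regulators were those of 4 genes. They were Crem (-0.98 ± 0.107, SE, adjusted p = 2.66e-05, limma), the transcription factor that switches on protamine and transition protein genes, Fhl5 (-1.02 ± 0.118, adjusted p = 4.05e-05), its coactivator, and Kif17 (-1.16 ± 0.122, adjusted p = 2.24e-05), the kinesin that carries this coactivator. Sox5, a transcription factor of the SOX family, had -1.00. Crem read 2776 and 2457 in this F1, against means of 5337 in musculus, 5064 in castaneus and 5200 in the castaneus x musculus F1. Without the second musculus x castaneus male, 10 regulators were lower and 1 higher. In musculus x domesticus, domesticus x musculus and castaneus x musculus, limma called 0 regulators against the midparent, with 2, 0 and 0 at an unadjusted p under 0.05. Over all probe sets 0.292%, 0.27% and 0.3% were called, and 5.99%, 5.21% and 8.49% had such a p.

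Genes for nuclear proteins of the exchange of histones for protamines were called in both directions. Of 24 tested genes, 7 were lower and 5 higher in the musculus x castaneus F1, where 13.4% of all probe sets were lower and 21.9% higher, so the share called higher was near that of the whole array. The median was -0.18, a value that turned to 0.04 after quantile normalization and to 0.21 with the bright level equalised. The largest differences were those of Camk4, a kinase that phosphorylates protamine (-1.34), H2al2a, a histone variant of late spermatids (-1.03), Hdac6, a deacetylase (1.01), and Top2b, a topoisomerase (0.97). The linker histone genes of spermatids, Hils1 (-0.77, adjusted p = 0.0018) and H1f7 (-0.72, adjusted p = 0.00208), were also lower and were singled out after their values were seen (limma). The third linker histone gene of the list, H1f6, had 0.15 (adjusted p = 0.686). In the castaneus x musculus F1, limma called 0 of the 24, with 2 at an unadjusted p under 0.05. Over all probe sets the shares were 0.3% and 8.49%. 
No member was called between the parents. Some genes of the lists were, in contrasts that called 12.8% (domesticus minus musculus) and 13.5% (castaneus minus musculus) of all probe sets. They are named as a description. Of the 24 nuclear protein genes, 3 were lower in domesticus than in musculus and 2 lower in castaneus, with 0 higher. Over all probe sets 5.86% and 6% were lower, and 6.95% and 7.48% higher. Kat5, an acetyltransferase of spermatid histones, was lower in both, by log2 differences of -0.90 in domesticus (adjusted p = 0.00767, limma) and -0.79 in castaneus (adjusted p = 0.0164). Chd5, a chromatin remodeller, had -0.72 and Prmt5, an arginine methyltransferase, -0.44 in domesticus, and Camk4 had -0.73 in castaneus. Of the 25 regulators, 2 were lower in each: Sox5 (-0.65 in domesticus, -0.66 in castaneus), Piwil1 in domesticus (-0.49) and the RNA helicase gene Ddx4 in castaneus (-0.42). Of the 30 elongating spermatid genes, Akap4, the main protein of the sperm tail's fibrous sheath, was higher in domesticus by 1.01, with means of 18760 against 9317.5 in musculus. Spag16, a protein of the tail's axoneme, was higher in domesticus (0.52) and castaneus (0.65), and Ubxn10 was lower in domesticus (-0.78). Of the 10 round spermatid genes, 1 was lower in domesticus than in musculus and 3 were lower in castaneus. At an unadjusted p under 0.05 there were 3 and 5, with 24.6% and 25.8% of all probe sets. The called genes of this list were Spata16, an acrosome formation gene, in both (-0.77 and -0.49), and Acr, the acrosomal protease acrosin (-0.80), and Lyzl4 (-0.95) in castaneus. In castaneus minus domesticus, where 6.19% of all probe sets were lower and 6.2% higher, the calls in these 4 lists were Brdt (-0.58), a bromodomain protein gene of the nuclear list, Khdrbs1 (0.69) among the regulators, Akap4 (-0.93), and Acr (-0.64) and Lyzl4 (-0.69) among the round spermatid genes.

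**Figure D5:**
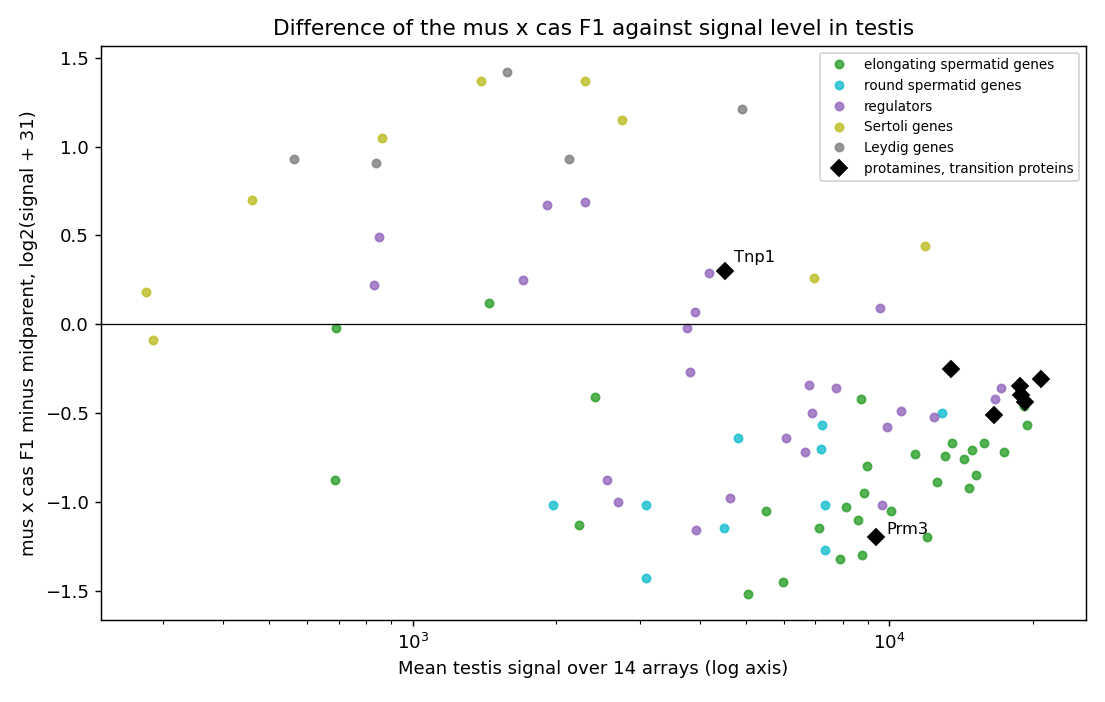
Log2 difference of the musculus x castaneus F1 from the midparent in testis against the mean signal over 14 arrays (log axis), with 1 point per gene and diamonds for the 8 member probe sets. Prm3 (-1.20) lies among the elongating spermatid genes, the other bright members lie between -0.51 and -0.25, the Leydig cell genes lie above 0, and the unlabelled diamonds are Prm1, Prm2, Tnp1 and Tnp2.

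Markers of some other cell types differed in the F1 with the low Prm3 signal. Shares over all probe sets in this contrast were 21.9% higher and 13.4% lower. Of 9 tested Sertoli cell genes, 6 were higher and 0 lower in the musculus x castaneus F1 (median 0.70), including Cldn11, a tight junction gene (1.37), Rhox5, a homeobox gene (1.37), Inha, an inhibin subunit (1.15), and Wt1 (1.05). Their summed signal was 36099 to 39252 in this F1 and 22668 to 30782 on the other arrays. Of 5 Leydig cell genes, 5 were higher (median 0.93), including Cyp11a1 (1.42) and Cyp17a1 (1.21), enzymes of steroid synthesis. Their sum was 17594 to 19163, against 5675 to 14149. The Leydig count was 3 without the first musculus male, the second castaneus male or either musculus x castaneus male. The parents also differed in the Leydig list, with a median of 0.67 in castaneus minus musculus. Of the 5 Leydig genes, 1 was called above both parents, where 8.36% of all probe sets were. In the reciprocal castaneus comparison 3 were called higher, where 17.9% of all probe sets were. The sum over the 30 elongating spermatid genes was 170278 to 189760, against 261316 to 366851, and over the 10 round spermatid genes 35612 to 36546, against 56469 to 71677. The 9 spermatogonial genes summed to 6690 to 6941, against 3679 to 5201, with 4 higher and 1 lower. In each of these 5 lists the sums in this F1 did not overlap those of the other arrays. Peritubular genes summed to 5195 to 6059, against 2708 to 4173 on the other arrays. Macrophage and blood genes summed to 1490 to 1565, against 778 to 1260. The nuclear protein genes summed to 82275 to 82305, against 90987 to 120206. The regulators summed to 126598 to 127650, against 144845 to 187980. None of these overlapped either, while the epididymal, brain and liver sums did. How often sums of other genes would separate this F1 in the same way was not determined, and 35.3% of all probe sets were called in this contrast. The 10 spermatocyte genes summed to 64234 to 66929, inside the 56243 to 71623 of the other arrays. Of them 5 were higher and 1 lower, and the count of 5 was 2 without either musculus x castaneus male and 3 without the first castaneus male. Of the peritubular, macrophage and blood, epididymal, brain and liver lists, with 2 or 3 tested genes each, 1, 1, 0, 0 and 0 were higher and 0, 0, 0, 1 and 0 lower. No gene of the lists was listed at 0 on a testis array. The spermatogonial sum was 8597 to 11485 in brain, above its 3679 to 6941 in testis. Macrophage and blood genes summed to 4495 to 6054 in brain and 2436 to 8399 in liver. The Sertoli sum in liver, 19870 to 33112, overlapped that in testis, 22668 to 39252. These sums therefore do not stand for the named cells alone. The spermatid, spermatocyte, Leydig and peritubular sums were higher in testis than in liver and brain. The part of these cell types in the Prm3 difference was not tested.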

How the data were processed

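The authors deposited 1 table of linear intensity, a signal for each of 45037 probe sets on 42 arrays. Per the submitters' processing notes the signals come from MAS5, whose version is not given in the sources used here. Trimmed of 2% at each end, the arrays had means of 496.9 to 498.6. In the platform annotation 34945 probe sets have 1 gene symbol, 932 have several and 9160 have none. An offset of 31, the 20th percentile of all values, was added before taking log2, so the change of dim transcripts is understated. Probe sets under the 40th percentile of mean log2 testis signal (a signal of 84.3) were left out, which kept 27022. They were fitted in limma 3.58.1 (R 4.3.3) by lmFit and by eBayes with an intensity trend, on the 7 genotypes, which leaves 7 residual degrees of freedom. Tests are two-sided, and p-values were adjusted by Benjamini-Hochberg within each contrast. The tissue fit estimated a correlation of 0.222 within males. Intervals are 95% and unadjusted. The script was tested on simulated data.

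A gene is represented by its brightest probe set in testis with exactly 1 symbol. Genes of the lists were named where called, up to 4 per list and contrast by the size of the difference, and those most like a member by the 5 highest r, leaving out the suffix _x_at. The members and lists were chosen with earlier results of these data known. Replicate numbers in the labels did not pair the males of different genotypes: 10 of 21 correlations of their deviations in testis lay above 0.1. MAS5 subtracts mismatch probes, and a probe that mismatches a subspecies' own sequence reads low; this was not tested. Alternatives were the offset, normalization, filter, intensity trend, a block, a stricter threshold, the midparent of linear signals, leaving out each male and, chosen after seeing the data, equalising the 100 brightest probe sets and fitting the compared genotypes alone. No sequences or positions are given.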

Additional observations from a re-analysis of the deposited data

Results flagged for a closer look

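The reciprocal difference of Prm3 in testis differed between the crosses by a test of the difference itself. It was -1.01 in the castaneus cross and 0.22 in the domesticus cross, and the castaneus minus domesticus difference was -1.24 ± 0.264 (SE, adjusted p = 0.0148, limma). The musculus x castaneus males read 4233 and 4917, and the 6 males of the other F1 read 7533 to 10975. Over the alternatives that left out 1 male the difference ranged from -1.48 to -0.99, always in the same direction, and the adjusted p from 0.00876 to 0.0738. The part of the cell type markers and of the age difference between the F1 was not tested.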

How the results depend on the processing

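Of 1723 single values recomputed under alternatives, 1682 kept their call, 25 were no longer called, 16 became called and 0 reversed a called direction. Of the 1682, 125 changed sign without a call on either side. The count of members called in musculus x castaneus minus midparent (2) was 1 with quantile normalization, with no filter, with no intensity trend, with the bright level equalised and at an adjusted p under 0.01, and 1 to 3 without 1 male. Against musculus (4) it was 1 with quantile normalization, 2 with the bright level equalised and 1 at an adjusted p under 0.01. The 2 were Prm3 and, newly called and higher, Tnp1 1438632_x_at (1.76, adjusted p = 0.0211, limma). For the mean of both castaneus F1 (1) it was 3 with the filter at the 60th percentile and 1 to 3 without 1 male. With the bright level equalised, 1 member was called in castaneus minus musculus (Tnp1 1438632_x_at, 2.13, adjusted p = 0.0237, limma) and 2 in the reciprocal castaneus comparison. The latter were Prm3 and, newly called and higher, Prm1 1415955_x_at (0.36, adjusted p = 0.0487, limma). In the difference between the crosses the count (1) was 0 at an adjusted p under 0.01 and 0 to 1 without 1 male, where the Prm3 value ranged from -1.48 to -0.99. Over all probe sets, the 9552 called in musculus x castaneus minus midparent were 6073 at an adjusted p under 0.01 and 5405 to 8659 without 1 male. Without 1 male, counts over all probe sets in other contrasts went from 3460 to between 2033 and 2277 in domesticus minus musculus, from 3642 to between 2130 and 2366 in castaneus minus musculus, and from 3349 to between 1821 and 2030 in castaneus minus domesticus. For musculus x castaneus minus castaneus the count went from 7406 to between 4163 and 5584, for the mean of both castaneus F1 from 4713 to between 2669 and 4201, and outside both parents in musculus x castaneus from 4149 to between 1676 and 3140. The reciprocal castaneus count of 7687 became 3450 to 7628 and the count of 1778 between the crosses 640 to 1995. In the contrasts with 55 to 112 calls it became 6 to 77. The replicate block, for numbers that did not pair the males, left Prm3 at -1.20 (adjusted p = 0.000183, limma) and changed the count of all calls to 9733. The cause of these changes was not tested. The number of males, 2 per genotype, limits the size of change that can be called, and whether the brightest signals are near saturation was not tested.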
